A study of Mus musculus with 1617 samples.

Results

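Among single brain macrophages from adult mice, cells were separated by their level of Junb, the gene of the JunB transcription factor. Junb-high cells had 100 TPM or more of Junb, and Junb-low cells had less than 1 TPM. TPM scales each gene by transcript length and gives every cell the same total. The cells were thus chosen by their measured Junb level. Of the adult whole brain cells, in a series of 1617 cells in all, 52.04% were Junb-high, 85 cells (38.46%) lay between the thresholds and 21 cells (9.502%) were Junb-low. Counts of Junb-high and of Junb-low cells below are thus out of groups of unlike size and cannot be compared directly. The cells were sorted on CD45, F4/80 and CD11b and against Ly6C, captured on Fluidigm C1 chips, on which each cell is lysed and reverse transcribed in its own chamber, and prepared with Nextera XT. The labels give the age of all these mice as adult, with no treatment, strain, sex or genotype, and they call the cells microglia. They name no animal or preparation, so all adult whole brain cells count as 1 sample. For that reason no test was made, and every value below is a description of these cells.

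The Junb-high cells ranged from 101.11 to 7422.4 TPM of Junb with a median of 418.49 TPM, while all 21 Junb-low cells were listed at 0. The 5 cells just inside the upper threshold had 101.11 to 110.87 TPM, and the 5 just outside it had 75.7 to 99.31 TPM. No cell lay between 0 and 1.19 TPM. There were 27 Junb-high cells under 200 TPM and 21 cells from 50 TPM up to the threshold, so the upper cut passes through a continuous range. Junb chose the cells and is itself no result.

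JunB belongs to the AP-1 family of leucine zipper transcription factors, which bind DNA as pairs of Fos, Jun, Atf and Maf type proteins. Many of them are immediate early genes: a stimulus switches them on from factors already present in the cell, without new protein, and their mRNAs are short-lived. Genes that end the response, such as Zfp36, Nfkbia and Dusp1, are switched on with them. In microglia the same stimuli can raise chemokine and cytokine genes. The heat shock genes are a separate group, driven mainly by the factor Hsf1, and encode chaperones that hold or refold damaged proteins.

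The 250 bases before the RefSeq start of 4 genes are shown because they stand for the groups compared here: Fos for AP-1, Zfp36 and Nfkbia for the inhibitors, and Hspa1a for heat shock. They are read 5′ to 3′ on the strand of the gene, build GRCm38.p6, from chr12:85473640-85473889 (+) for Fos, chr7:28379229-28379478 (-) for Zfp36, chr12:55492648-55492897 (-) for Nfkbia and chr17:34972157-34972406 (-) for Hspa1a. Capitals mark matches to any of 5 motifs searched on both strands: the AP-1 site TGANTCA, the cAMP element TGACGTCA, the heat shock element GAANNTTC or TTCNNGAA, the CArG box of serum response factor, and the NF-kB site. No matches overlap in these windows. The Zfp36 window lies inside the span given for that gene further on. That span comes from another annotation, GENCODE M21, whose start for Zfp36 lies further upstream.
Fos: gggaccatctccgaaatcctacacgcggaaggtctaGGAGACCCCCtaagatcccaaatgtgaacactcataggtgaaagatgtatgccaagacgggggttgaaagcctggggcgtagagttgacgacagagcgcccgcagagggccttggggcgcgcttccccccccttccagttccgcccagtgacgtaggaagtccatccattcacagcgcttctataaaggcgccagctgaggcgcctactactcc
Zfp36: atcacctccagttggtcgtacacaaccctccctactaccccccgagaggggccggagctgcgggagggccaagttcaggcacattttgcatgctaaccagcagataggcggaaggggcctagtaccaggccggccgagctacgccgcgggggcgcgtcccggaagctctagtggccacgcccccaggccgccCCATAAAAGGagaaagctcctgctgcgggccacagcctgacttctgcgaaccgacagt
Nfkbia: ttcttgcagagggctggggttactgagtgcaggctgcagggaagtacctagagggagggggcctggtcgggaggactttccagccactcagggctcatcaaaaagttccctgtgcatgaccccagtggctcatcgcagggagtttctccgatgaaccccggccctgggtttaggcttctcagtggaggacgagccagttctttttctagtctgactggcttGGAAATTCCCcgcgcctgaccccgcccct
Hspa1a: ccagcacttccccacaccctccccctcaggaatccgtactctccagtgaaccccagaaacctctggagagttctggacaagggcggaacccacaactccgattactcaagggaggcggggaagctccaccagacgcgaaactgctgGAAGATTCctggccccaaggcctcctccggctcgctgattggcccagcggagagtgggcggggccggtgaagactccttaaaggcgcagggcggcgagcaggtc

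The capitals are an NF-kB match in Fos and in Nfkbia, a CArG box in Zfp36 and a heat shock element in Hspa1a. Of 32851 RefSeq promoter windows of the same length, 6.75% held the AP-1 site, 1.55% the cAMP element, 12.8% a heat shock element, 1.47% a CArG box and 5% an NF-kB match. A heat shock element was present in 8 of the 20 heat shock genes whose window matched a listed symbol, and in 2 of 10 AP-1 family genes, 0 of 19 other immediate early genes and 0 of 18 inhibitor genes. An NF-kB match was present in 3 of 10 AP-1 family windows, 1 of 19 other immediate early windows, 2 of 18 inhibitor windows and 1 of 20 heat shock windows. The AP-1 site and the CArG box were in none of the AP-1 family and other immediate early windows. Each was in 2 of 18 inhibitor windows, and the AP-1 site also in 1 of 20 heat shock windows. The cAMP element was in 2 of 19 other immediate early windows and 1 of 18 inhibitor windows, and in no window of the other two lists. These are matches of letters in 1 window per gene, not sites shown to be bound.

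The libraries of both groups were compared first, because they differed. Junb-high cells had 1 TPM or more of 324 to 5649 genes, with an upper quartile of 4164.5, and Junb-low cells of 456 to 4824, with an upper quartile of 3818. The 50 highest genes held a median of 39.4% of the TPM in Junb-high cells and 50.7% in Junb-low cells. Mitochondrial genes held a median of 2.21% of the TPM in Junb-high cells, with an upper quartile of 3.66%, and a median of 3.998% in Junb-low cells, with an upper quartile of 12.4%. A library passed a check, set after the values were seen, if it had 1000 genes or more, less than 50% of its TPM in its 50 highest genes, and no neutrophil marker at 100 TPM or more. It was passed by all but 11 Junb-high cells (90.4%), by 69 of 85 cells between the thresholds (81.2%) and by 9 of 21 Junb-low cells (42.9%). Results are therefore given for all cells and for the libraries that passed.

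The 12 Junb-low libraries that did not pass were of several kinds. The predicted gene Gm10800 was the highest gene in 4 Junb-low cells, Gm28437 in 2 and a mitochondrial gene in 2. Actb, cytoskeletal actin, was as low as 33.28 TPM among those led by predicted genes. A further cell had 456 genes. In 1 cell the highest gene was Ngp, a neutrophil granule gene, at 111543 TPM, with 102997 TPM of S100a8 and 16.56 TPM of P2ry12. The label of microglia does not hold for that cell.

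The summed level of 9 microglia markers separated these libraries as well. It ran from 140.22 to 51209.8 TPM in Junb-high cells with a median of 19934 TPM, and from 30.2 to 42251.9 TPM in Junb-low cells with a median of 5780.59 TPM. In libraries that passed it ran from 7329.4 to 51209.8 TPM in Junb-high and from 20339.7 to 42251.9 TPM in Junb-low cells. All 9 Junb-low cells that passed were thus marked as microglia. The sum of 7 neutrophil markers was at most 60.64 TPM in Junb-high cells, and 324295 TPM in the Junb-low cell named above. Border-associated macrophage markers reached 100 TPM in 45 Junb-high and 5 Junb-low cells. The highest marker sums in Junb-high and in Junb-low cells were 2085.6 and 26968.6 TPM for monocytes and 13322.8 and 309.54 TPM for endothelium. They were 2669.55 and 2946.39 TPM for astrocytes and 3198.73 and 612.83 TPM for B cells. Oligodendrocyte lineage markers reached 1169.59 and 257.47 TPM, and T cell markers 453.14 and 373.83 TPM. Median sums of these lists were at most 25.77 TPM in either group. Neuron, dendritic cell, natural killer cell, mural and erythroid markers had no measured member.

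**Figure D1:**
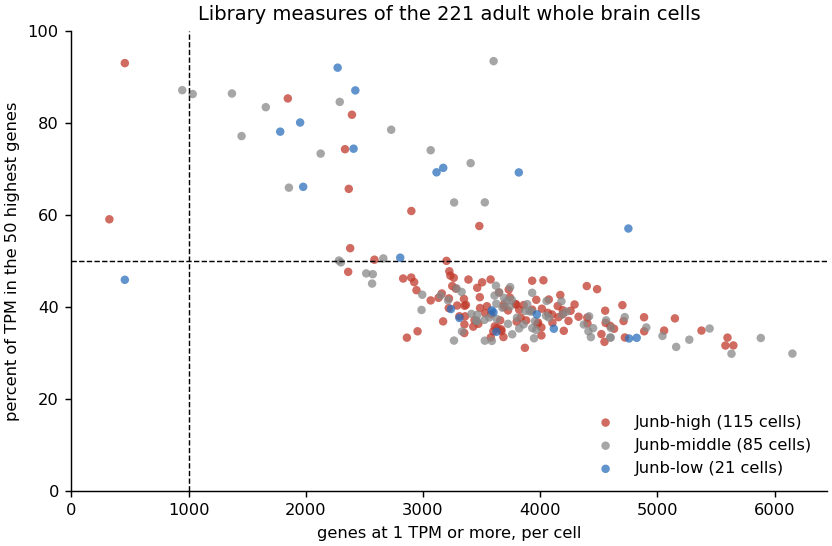
Library measures of the adult whole brain cells: genes at 1 TPM or more per cell on the x axis, percent of TPM in the 50 highest genes on the y axis, 1 point per cell, coloured by Junb range, with dashed lines at 1000 genes and 50%. At or above 50% lie 11 Junb-high cells and 11 of the 21 Junb-low cells.

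Over the whole transcriptome, mean levels were compared as the log2 ratio of mean TPM in Junb-high over Junb-low cells, with 1 TPM added to each mean. A gene was measured if its mean was 5 TPM or more in either group, which 11362 genes were. By this measure 5903 genes (52%) stood 1.5-fold or more higher in Junb-high cells, 3484 genes (30.7%) stood 1.5-fold or more lower, and the median log2 ratio was 0.71. For libraries that passed, the shares of 10462 measured genes were 57.7% and 25.5% and the median log2 ratio was 1.198. Means of so few Junb-low cells often rest on 1 cell, so a 1.5-fold ratio is a low bar here. The second measure was the percent of all pairs of a Junb-high and a Junb-low cell in which the Junb-high cell had the higher TPM, where 50% is no difference and ties count for both sides equally. Only 150 genes (1.32%) were higher in 70% or more of pairs and 3 genes (0.0264%) lower in 70% or more. In libraries that passed, the shares were 1.03% higher and 1.6% lower.

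In all cells the AP-1 family was higher in Junb-high cells by both measures. Of its 10 measured members other than Junb, 8 were 1.5-fold higher (80%, against 52% of all genes) and 2 lower (20%, against 30.7%). The median log2 ratio was 1.60, against 0.71 for all genes. Fos, Atf3, Fosb, Jun and Jund were higher in 70% or more of pairs, as were 1.32% of all genes. With passed libraries alone, 6 of 9 were 1.5-fold higher (66.7%, near the 57.7% of all genes) and 1 lower (11.1%, against 25.5%). Fos, Jund, Atf3 and Fosb still stood above 70% of pairs there, as did 1.03% of all genes.

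Fos, the partner of JunB in the classical AP-1 dimer (chr12:85473890-85477273, + strand), ranged from 0 to 19174.9 TPM in Junb-high cells with a median of 3160.02 TPM. In Junb-low cells it ranged from 0.64 to 8834.39 TPM with a median of 107.9 TPM. The ranges overlapped, but all except 10 Junb-high cells (91.3%, exact Clopper-Pearson 95% interval 84.6 to 95.8%) had 100 TPM or more, against 11 of 21 Junb-low cells (52.4%, 29.8 to 74.3%). These intervals cover counting error over cells only. The Junb-high cell was above in 85.01% of pairs, and in 87.7% among libraries that passed, where the medians were 3208.03 TPM in Junb-high and 300.05 TPM in Junb-low cells. The highest Junb-low cell was the library with 456 genes, and without the libraries that failed the highest Junb-low value was 2191 TPM. Fos was therefore detected in nearly all Junb-low cells, at a lower level.

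Atf3, a stress-induced factor that pairs with Jun proteins, had a median of 1293 TPM in Junb-high and 18.99 TPM in Junb-low cells, and was higher in 79.5% of pairs. It reached 100 TPM in 93 Junb-high (80.9%) and 5 Junb-low cells (23.8%). Fosb, a Fos paralogue, had a median of 25.99 TPM in Junb-high cells and 0 in Junb-low cells, and no Junb-low cell exceeded 80 TPM. Jund, a Jun protein usually present without a stimulus, had medians of 20.64 and 2.78 TPM in Junb-high and Junb-low cells and was higher in 72.9% of pairs, or 80.7% among libraries that passed. Jun itself differed less. Its medians were 640.6 TPM in Junb-high and 203.7 TPM in Junb-low cells, its log2 ratio was 0.90, and among libraries that passed the log2 ratio was 0.41 with 68.1% of pairs.

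**Figure D2:**
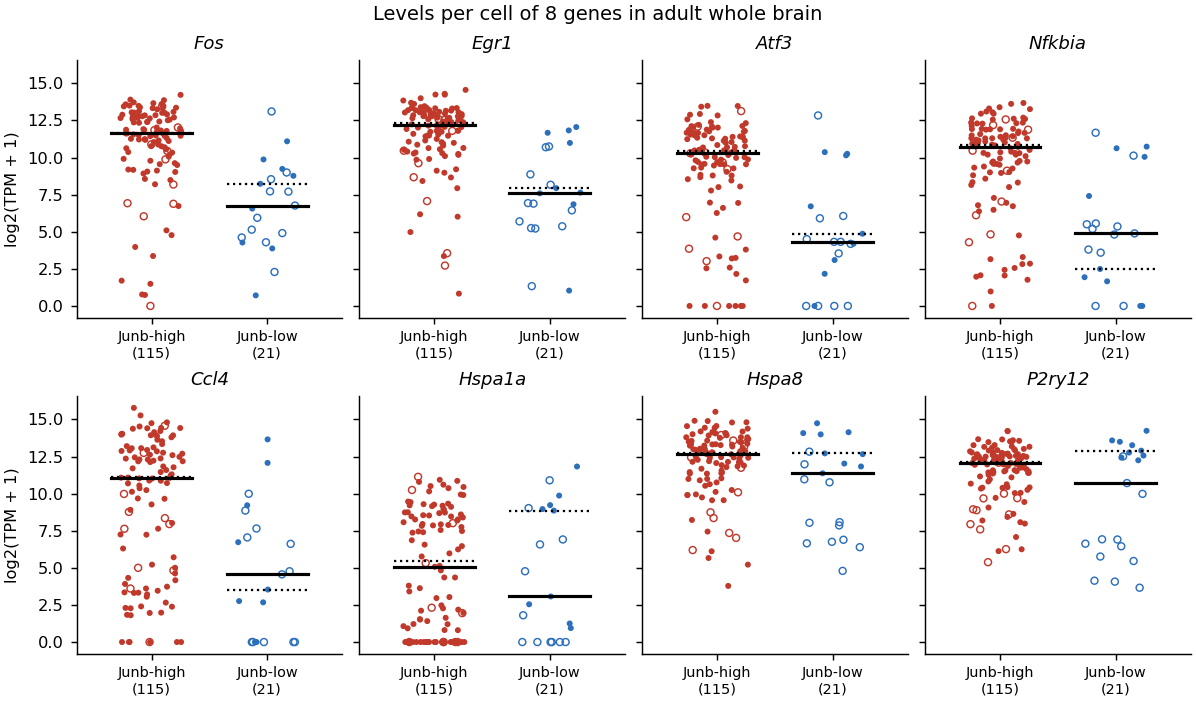
Level of 8 genes in each cell as log2(TPM + 1), Junb-high left of Junb-low; filled points passed the library check and open points did not. Solid bars are medians of all cells and dotted bars medians of libraries that passed. The medians of Fos, Egr1, Atf3, Nfkbia and Ccl4 are higher in Junb-high cells in both sets, though the ranges of all 8 genes overlap. In passed libraries the Hspa8 medians are near each other, and the Hspa1a and P2ry12 medians are lower in Junb-high cells.

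Other immediate early genes followed the same direction. Of 22 measured, 18 were 1.5-fold higher in Junb-high cells and 3 lower, with a median log2 ratio of 1.74, and 11 were higher in 70% or more of pairs. Together with the AP-1 family this made 26 of 32 members 1.5-fold higher against 52% of all genes, and 16 of 32 above 70% of pairs against 1.32% of all genes. In the passed libraries 20 of 31 were 1.5-fold higher against 57.7% of all genes. There 7 of 31 stood above 70% of pairs against 1.03%.

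Egr1, a zinc finger factor of the serum response, had 0.78 to 24216.1 TPM in Junb-high cells with a median of 4595 TPM. Its Junb-low values were 1.05 to 4262 TPM with a median of 191.7 TPM. It was higher in 86.1% of pairs, and in 81.2% among libraries that passed, with medians there of 5200 and 244.6 TPM. Ier5, an immediate early regulator of transcription, was at a median of 61.64 TPM in Junb-high cells and 0 in Junb-low cells, and was higher in 86.9% of pairs. Klf6, a Kruppel-like factor, was the third of this list to stay above 70% among libraries that passed, at 72.2%. Btg2, an antiproliferative gene, had medians of 3361 and 211.9 TPM in Junb-high and Junb-low cells. In passed libraries its medians were 3698 TPM in Junb-high and 2211 TPM in Junb-low cells. The difference stayed larger within the stretches of title numbers described further on. Passed libraries of the largest stretch had medians of 3336.67 TPM in Junb-high and 634.1 TPM in Junb-low cells with 85.6% of pairs, and those of the later stretch 7182.51 and 3007.8 TPM with 82.1% of pairs.

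Several members had smaller ratios in the pooled passed libraries, and for some the value depended on the stretch of title numbers. The log2 ratio of Ier2 was 1.56 in all cells and 0.23 in passed libraries, that of Ppp1r15a, a phosphatase subunit of the stress response, 1.01 and 0.15, that of Btg1 1.15 and 0.23, and that of Mcl1, an inhibitor of apoptosis, 1.22 and 0.11. Rgs1, a regulator of chemokine receptor signalling, had a log2 ratio of 2.26 in all cells and 1.36 in passed libraries. Within the largest stretch the passed libraries gave 2.45 for Ier2, 7.59 for Ppp1r15a, -0.22 for Btg1, -0.80 for Mcl1 and 1.44 for Rgs1. In the later stretch they gave -1.52 for Ier2, 0.49 for Ppp1r15a, 0.079 for Btg1, 1.97 for Mcl1 and 1.13 for Rgs1. For Ier2 and Mcl1 the pooled ratio in passed libraries therefore stands for neither stretch. For Ppp1r15a it is far from that of the largest stretch, and for Rgs1 it is near both. Each stretch held only 4 passed Junb-low cells, and the part played by library quality was not tested.

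The inhibitors that end the response had the same direction. Of 16 measured, 13 were 1.5-fold higher in Junb-high cells (81.2%, against 52% of all genes) and 1 lower (6.25%, against 30.7%), with a median log2 ratio of 2.59. Zfp36, Nfkbia, Dusp1, Tob2, Nfkbiz, Zfp36l1 and Socs3 were higher in 70% or more of pairs. In passed libraries 13 of 15 were 1.5-fold higher, against 57.7% of all genes, and none lower, against 25.5%, and 7 again stood above 70% of pairs, with Tnfaip3 among them and Dusp1 below.

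Zfp36, which binds and destabilises cytokine and Fos mRNA (chr7:28376784-28380253, - strand), had 0 to 12315 TPM in Junb-high cells with a median of 2034 TPM. In Junb-low cells it had 0 to 1967 TPM with a median of 70.18 TPM. It was higher in 84.8% of pairs and in 83.3% among libraries that passed. Nfkbia, the inhibitor that holds NF-kB in the cytoplasm (chr12:55489410-55492647, - strand), had medians of 1688 and 28.65 TPM in Junb-high and Junb-low cells. It reached 100 TPM in 96 Junb-high (83.5%) and 6 Junb-low cells (28.6%), and its pair share was 81.1% in all cells and 81.6% in passed libraries. Tnfaip3, the A20 enzyme that restrains NF-kB, had 100 TPM or more in 48 Junb-high cells and 1 Junb-low cell. Tob2, an antiproliferative relative of Btg genes, had 100 TPM or more in 22 Junb-high and 0 Junb-low cells. Dusp1, a MAP kinase phosphatase, was higher in 76.98% of pairs but in 62.4% among passed libraries, where its log2 ratio was 0.25.

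NF-kB subunits and partners, and the cytokines and chemokines that they can switch on, had mostly higher means in Junb-high cells, with few members above 70% of pairs. Of 7 measured NF-kB genes 6 were 1.5-fold higher (85.7%, against 52% of all genes) and 1 lower. In passed libraries 5 of 7 were 1.5-fold higher (71.4%, against 57.7%). Rel and Birc3 were higher in 74.1% and 71.3% of pairs, but no member of the list stayed above 70% among passed libraries. Of 20 measured inflammatory genes 17 were 1.5-fold higher (85%, against 52% of all genes) and 3 lower, with a median log2 ratio of 2.67, yet only Ccl4, Il1a and Cd83 reached 70% of pairs. Among passed libraries 16 of 20 were 1.5-fold higher (80%, against 57.7%), and Il1a, Ccrl2, Ccl4 and Cd83 reached 70% of pairs.

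Ccl4, a chemokine of activated microglia, had 0 to 56368.6 TPM in Junb-high cells with a median of 2092 TPM, and 0 to 12935.4 TPM in Junb-low cells with a median of 22.63 TPM. It was higher in 76.05% of pairs and in 71.3% among passed libraries. Tnf, the cytokine, was present in a minority of cells. It had 1 TPM or more in 50 Junb-high cells (43.5%, interval 34.3 to 53.04%), 17 of 85 cells between the thresholds (20%, 12.1 to 30.1%) and 3 of 21 Junb-low cells (14.3%, 3.05 to 36.3%). At 100 TPM the counts were 26 Junb-high and 0 Junb-low cells, and the 0 of 21 has an exact upper bound of 16.1%. Ccl2 and Ccl7, chemokines that draw monocytes, had mean log2 ratios of -1.05 and -4.59, but 1 Junb-low cell held 24028.3 TPM of Ccl2 and 19204.1 TPM of Ccl7. Ccl7 reached 100 TPM in 2 Junb-high cells and 1 Junb-low cell, so its mean describes that 1 cell.

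The place of the heat shock genes in whole brain depended on which cells were counted. Of 23 measured members 10 were 1.5-fold higher in Junb-high cells and 3 lower, a share of 43.5% against 52% of all genes, and none was higher in 70% or more of pairs. The median member was higher in 52.7% of pairs, against 51.7% for the median of all measured genes. Counting passed libraries only, 8 were 1.5-fold higher and 11 lower, against 57.7% and 25.5% of all genes, and the median log2 ratio was -0.48. A single Junb-low cell, which stands alone in its title number, moved these values. Without it 13 of 23 members were 1.5-fold higher in all cells, and 11 of 23 in passed libraries, where the median log2 ratio was then 0.37. Without the highest cell of each gene in each group 18 of 23 were 1.5-fold higher, and in the largest stretch of title numbers 17 of 23. Most measured genes were also 1.5-fold higher without the highest cells and in the largest stretch, with all-gene median log2 ratios of 1.89 and 1.47. The counts are therefore not read as particular to heat shock genes. Within the largest stretch Hspa8, Hsp90ab1, an Hsp90 gene, and Dnajb4, an Hsp40 gene, were higher in 75.4%, 72.8% and 70.3% of pairs. Of all genes 3.18% reached 70% of pairs there. In its passed libraries, with 4 Junb-low cells, Hsp90ab1 and Dnajb4 stood at 77.1% and 72.2% and Hspa8 at 46.4%. Hsph1, Dnajb6 and Stip1, also of this list, went the other way there, at 15.7%, 21.5% and 25.4%. Of all genes in those libraries 2.98% were higher and 7.67% lower in 70% of pairs.

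Hspa1a, an inducible Hsp70 chaperone (chr17:34969190-34972156, - strand), ranged from 0 to 2248.2 TPM in Junb-high cells with a median of 32.61 TPM and a mean of 284.7 TPM. It ranged from 0 to 3642.8 TPM in Junb-low cells with a median of 7.41 TPM and a mean of 420.4 TPM. The log2 ratio was -0.56 and the Junb-high cell was above in 50.02% of pairs. The sign of that ratio rested on 1 Junb-low cell, which held 41.3% of the Junb-low total. Without that cell the log2 ratio was 0.13 with 52.5% of pairs, and it was 0.03 in the largest stretch and 0.82 in the later one. Cells with 100 TPM or more made up 43.5% of Junb-high cells (34.3 to 53.04%) and 38.1% of Junb-low cells (18.1 to 61.6%). In libraries that passed, the medians were 43.78 TPM in Junb-high and 462.4 TPM in Junb-low cells, with 35.5% of pairs, or 39.9% without that cell. Hspa1a is named as a marker of the Junb-high state, but in all whole brain cells its pair share was near 50%.

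Over all cells the other chaperones named here had pair shares nearer to 50% than to 70%, apart from Hspa8. Hspa1b, a near-identical copy of Hspa1a whose reads can be shared with it, had medians of 7.72 and 6.66 TPM in Junb-high and Junb-low cells. Hspa8, the constitutive Hsc70, had medians of 6552 TPM in Junb-high and 2655.84 TPM in Junb-low cells and 66.004% of pairs, while in passed libraries the medians were 6996 and 6723 TPM with 41.6% of pairs. Dnajb1, an Hsp40 co-chaperone, and Hsp90aa1, an Hsp90 gene, were higher in 54.7% and 52.7% of pairs. Hsph1, an Hsp110 exchange factor, was the one member of the list lower in 70% or more of pairs in passed libraries, where the Junb-high cell was above in 25.2%. Bag3, a chaperone partner, had a log2 ratio of 2.78 but was at 100 TPM or more in only 9 Junb-high cells and 1 Junb-low cell.

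The neighbouring stress pathway gave a few single genes. Of 14 measured genes of the unfolded protein and integrated stress responses 9 were 1.5-fold higher (64.3%, against 52% of all genes) and 2 lower. In passed libraries 6 of 14 were higher (42.9%, against 57.7%) and 4 lower (28.6%, against 25.5%). Atf4, the main transcription factor of the integrated stress response, had medians of 19.99 TPM in Junb-high cells and 0 in Junb-low cells, with 73.5% of pairs in all cells and 70.1% in passed libraries. Herpud1 and Hspa5, which serve the endoplasmic reticulum, were higher in 72.2% and 71.6% of pairs, but below 70% in passed libraries. Ddit3, a target of Atf4, reached 100 TPM in 36 Junb-high cells and 0 Junb-low cells.

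**Figure D3:**
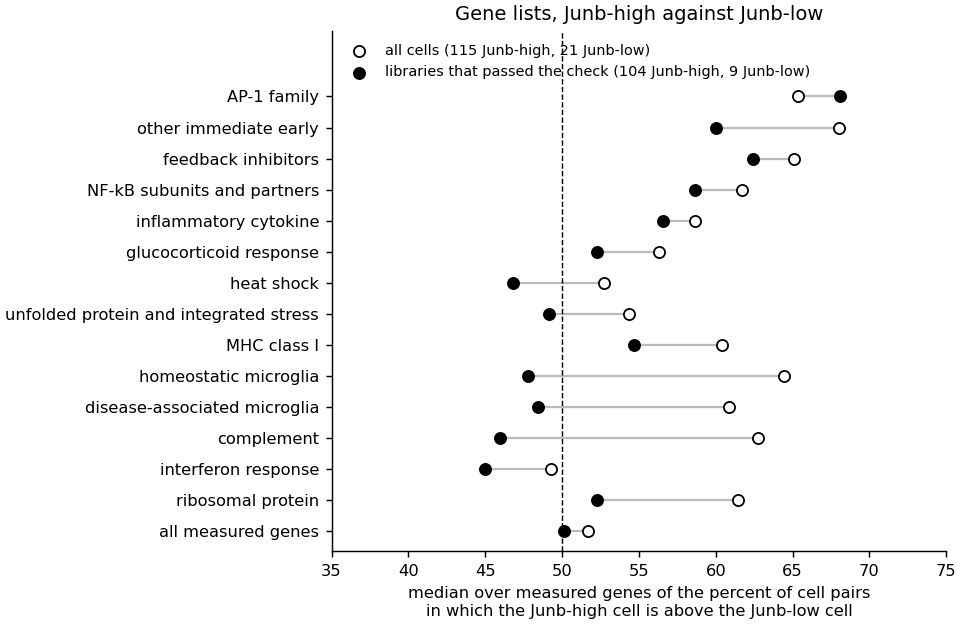
Median over the measured members of each gene list of the percent of cell pairs in which the Junb-high cell is above; open circles are all cells, filled circles libraries that passed the check, and the dashed line is 50%. AP-1, inhibitor and NF-kB lists stay to the right in both sets, heat shock sits at 52.7% and 46.8%, and the homeostatic list is at 64.4% in all cells and 47.8% in passed libraries.

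Homeostatic microglia genes, which mark the resting state, depended on which libraries were counted. In all cells 11 of 20 were 1.5-fold higher in Junb-high cells, a share of 55% near the 52% of all genes, and none lower, against 30.7%, with a median of 64.4% of pairs. In libraries that passed, 3 were higher (15%, against 57.7%) and 7 lower (35%, against 25.5%), and the median member stood at 47.8% of pairs. P2ry12, a purine receptor of resting microglia, had medians of 4279 TPM in Junb-high and 1679 TPM in Junb-low cells overall. In passed libraries it had 68.94 to 19176.7 TPM with a median of 4556 TPM in Junb-high cells, and 4870 to 19322.2 TPM with a median of 7637 TPM in Junb-low cells. All 9 passed Junb-low cells were thus above the Junb-high median, and the Junb-high cell was above in 19.8% of pairs.

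Tmem119, a membrane protein specific to microglia, had medians of 204.8 TPM in Junb-high and 828 TPM in Junb-low cells among passed libraries, with 31.2% of pairs. Trem2, a lipid-sensing receptor, was above in 26.9% of those pairs, with medians of 354.6 and 1187.52 TPM in Junb-high and Junb-low cells. Cx3cr1, the fractalkine receptor, went the other way, with 72.8% of pairs in all cells and 56.6% in passed libraries. For P2ry12, Tmem119 and Trem2 the side of 50% differed between both sets of cells, and the 9 passed Junb-low cells limit what can be said of it.

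The remaining lists are given by their counts and median pair shares. Of 83 measured ribosomal protein genes 54 were 1.5-fold higher in Junb-high cells (65.1%, against 52% of all genes), with 61.4% of pairs for the median gene, and this was 52.3% in passed libraries. Complement genes were at 62.7% and 45.9%, and disease-associated microglia genes at 60.9% and 48.4%. Interferon response genes were 1.5-fold higher in 10 of 13 (76.9%, against 52% of all genes), but their median pair share was 49.3%. Glycolysis genes were at 52.6%. Of 7 measured cell death genes 3 were 1.5-fold higher (42.9%, against 52%) and 1 lower, and in passed libraries 3 higher and 2 lower. Of 18 macrophage transcription factors 9 were higher (50%, against 52%) and 3 lower. In passed libraries 8 of 19 were higher (42.1%, against 57.7%) and 7 lower (36.8%, against 25.5%). Oxidative stress and metallothionein genes were 1.5-fold higher in 5 of 6 (83.3%, against 52%), and in 4 of 5 in passed libraries (80%, against 57.7%). Their median log2 ratios were 3.96 and 3.02, against 0.71 and 1.198 for all genes, but their median pair shares were 56.3% and 56.2%. Mt1 among them, a metallothionein, was higher in 71.3% of pairs, and in 57.96% in passed libraries. TGF-beta signalling genes were 1.5-fold higher in 8 of 9 (88.9%, against 52%), and in 5 of 8 in passed libraries (62.5%, near the 57.7% of all genes). Their median pair shares were 55.5% and 51.8%, and Skil, an inhibitor of that pathway, was higher in 74.2% and 53.5% of pairs. Glucocorticoid response genes were 1.5-fold higher in 5 of 6 (83.3%, against 52%), and in 3 of 5 in passed libraries (60%, near 57.7%), with 56.3% and 52.2% of pairs. All 3 measured MHC class II genes were 1.5-fold higher (against 52%), and 2 of 3 in passed libraries (66.7%, against 57.7%), with 54.2% and 45.7% of pairs. Of 32 measured genes of the mitochondrial genome 19 were 1.5-fold lower (59.4%, against 30.7% of all genes) and 8 higher, while their median pair share was 50.7%. In passed libraries 12 of 30 were lower (40%, against 25.5%). MHC class I genes were at 60.4% in all cells and 54.6% in passed libraries. H2-K1 among them, with medians of 929.6 and 82.59 TPM in Junb-high and Junb-low cells, was higher in 74.8% and 76.4% of pairs.

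Outside the lists, the genes with the highest pair shares were picked after their values were seen. Ccnl1 and Clk1, which act in pre-mRNA splicing, had medians of 1354 and 2077 TPM in Junb-high cells, against 9.33 and 107.4 TPM in Junb-low cells, with 85.4% and 81.6% of pairs. Id2, an inhibitor of helix-loop-helix factors, had medians of 1812 TPM in Junb-high and 16.2 TPM in Junb-low cells, with 82.7% of pairs and 81.4% in passed libraries. Ubb, a polyubiquitin gene, was higher in 84.7% of pairs, and Ftl1, the ferritin light chain, in 84.9%. Reads of Ubb and Ftl1 can be shared with near-identical copies, so their levels are uncertain singly.

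The largest ratios of means were of another kind. Mrpl30, a mitochondrial ribosomal protein gene, and Shisa5 had log2 ratios of 7.23 and 6.995, yet they reached 100 TPM in only 10 and 17 Junb-high cells and in 0 Junb-low cells. In the other direction, 98.5% of the Junb-low total of Ly6c2 and 92.8% of that of Nsun5 came from 1 cell each. Ly6c2, a monocyte gene, is listed with a log2 ratio of -5.90 for that reason.

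Within the Junb-high cells the amount of Junb said little about the other genes. Over all Junb-high cells Spearman's rho with Junb was -0.08 for Fos, 0.10 for Egr1, 0.13 for Atf3, 0.11 for Nfkbia and -0.13 for Hspa1a. These correlations are given as descriptions; the points share libraries and a TPM total. The medians of Fos in passed libraries were 300.05 TPM below 1 TPM of Junb, 2000.2 TPM between 1 and 100 TPM, and 3629, 3234.3 and 2610.08 TPM in the ranges from 100, 300 and 1000 TPM. The Fos median thus rose by similar amounts below the 100 TPM threshold and across it. Over all cells it was 107.9, 1407.67 and 3539.86 TPM in the first 3 ranges. In passed libraries Nfkbia had medians of 4.62, 309.25 and 1935 TPM in the first 3 ranges, so in TPM most of its difference lay between the second and the third range. As a ratio of medians in passed libraries, the larger step was between the first and the second range for both genes.

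**Figure D4:**
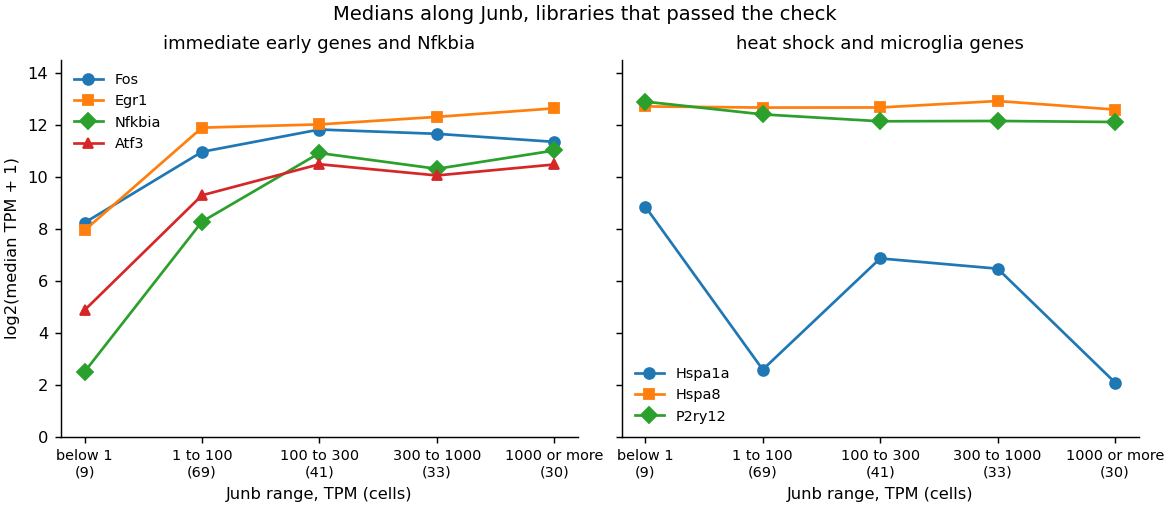
Median level of 7 genes, as log2(median TPM + 1), in 5 ranges of Junb among libraries that passed the check, with the number of cells in each range in parentheses. Fos, Egr1, Nfkbia and Atf3 are lowest below 1 TPM of Junb (9 cells) and near level from 100 TPM on; Hspa8 is near level throughout, the P2ry12 median is 7637 TPM below 1 TPM of Junb and 5435 TPM in the next range, with 4436 to 4559 TPM from 100 TPM on, and Hspa1a varies without order.

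Fos, Egr1, Jun, Atf3, Dusp1 and Nfkbia were each at 100 TPM or more in most Junb-high cells, from 79.1% for Dusp1 to 93.9% for Egr1. Many cells would thus hold several of them from these shares alone. Whether they stood high together more often than that was not tested. All 6 were at 100 TPM or more in 60 Junb-high cells (52.2%) and in 1 of 21 Junb-low cells (4.76%), and among passed libraries in 58 Junb-high cells (55.8%) and in 1 of 9 Junb-low cells (11.1%). The most frequent count in Junb-low cells was 1 of the 6 genes, in 6 cells. Fos and Egr1 were together at 100 TPM in 100 Junb-high cells. That was 95.2% of those with Fos at that level, where 93.9% of all Junb-high cells had Egr1 there. Their rho was 0.35, and Fos and Dusp1 had rho of 0.36. Fos and Ccl4 had rho of -0.26.

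Correlations of Hspa1a within Junb-high cells were weak apart from its copy. Its rho over Junb-high cells was 0.54 with Hspa1b, though these copies can share reads, 0.24 with Hsph1, 0.23 with Hspa8 and 0.21 with Dnajb1. It was 0.14 with Jun, 0.03 with Fos and -0.09 with Egr1. In passed libraries it was 0.50 with Hspa1b, 0.20 with Hspa8, 0.16 with Dnajb1, 0.15 with Hsph1, 0.095 with Jun and -0.07 with Fos. Of the 50 Junb-high cells with 100 TPM or more of Hspa1a 47 also had 100 TPM or more of Fos, a share of 94%, where 91.3% of all Junb-high cells had it.

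The adult whole brain cells fall into separate stretches of title numbers, and what these stand for is not known. The largest holds all but 14 of the Junb-high cells and 15 Junb-low cells, a later one holds 14 and 5, and 1 Junb-low cell stands alone. Among passed libraries the direction was the same in both stretches for Fos, with 86.7% of pairs (90 Junb-high and 4 Junb-low cells) and 66.1% (14 and 4). Egr1 had 86.4% and 69.6%, Zfp36 87.2% and 70.5%, and Atf3 81.1% and 77.7%. Nfkbia had 86.4% and 64.3%, but in the later stretch its median was 473.2 TPM in Junb-high and 529.6 TPM in Junb-low cells. Dusp1 had 73.1% and 41.1%, Hspa1a 41.1% and 50%, and P2ry12 12.2% and 33.9%.

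The same thresholds were set in the other adult samples, hippocampus (9 Junb-high and 34 Junb-low cells), thalamus (35 and 29) and visual cortex (4 and 31), each of them 1 sample. Libraries that passed numbered 8 and 14, 35 and 18, and 4 and 22 Junb-high and Junb-low cells. In thalamus, with the most Junb-high cells, Fos had medians of 4086 TPM in Junb-high and 252.5 TPM in Junb-low cells and was higher in 80% of pairs. The share was 71.7% in passed libraries. Egr1 had 77.9% and 70.6% there, Jund 77.5% and 72.7%, and Nfkbia 70.2% and 64.4%, and the background of genes above 70% of pairs was 1.81% and 0.657%.

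Hippocampus and visual cortex held few Junb-high cells and gave less. In hippocampus Fos was higher in 73.9% of pairs in all cells but in 52.7% in passed libraries, with medians there of 2543.58 and 2488.66 TPM in Junb-high and Junb-low cells. In visual cortex Fos was higher in 79.03% and 73.9% of pairs, while Egr1 was at 45.2% and 32.95% and Nfkbia at 35.5% and 30.7%. The 4 Junb-high cells of visual cortex thus did not share the full pattern of whole brain. The differences between samples were not tested.

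The heat shock genes were placed differently in the regions. Hspa1a was higher in 62.1% of pairs of passed libraries in thalamus, 55.4% in hippocampus and 73.3% in visual cortex, against 35.5% in whole brain, or 39.9% there without the lone Junb-low cell. Hspa8 stood at 57.9% in thalamus, 63.4% in hippocampus and 89.8% in visual cortex, against 41.6% in whole brain. The median heat shock gene was at 57.2% in thalamus, 55.4% in hippocampus and 55.1% in visual cortex, where the median of all measured genes was 51.4% in thalamus, 49.1% in hippocampus and 47.7% in visual cortex. P2ry12 was below 50% in passed libraries of all 4 samples, at 19.8% in whole brain, 42.9% in hippocampus, 35.7% in thalamus and 42.05% in visual cortex.

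**Figure D5:**
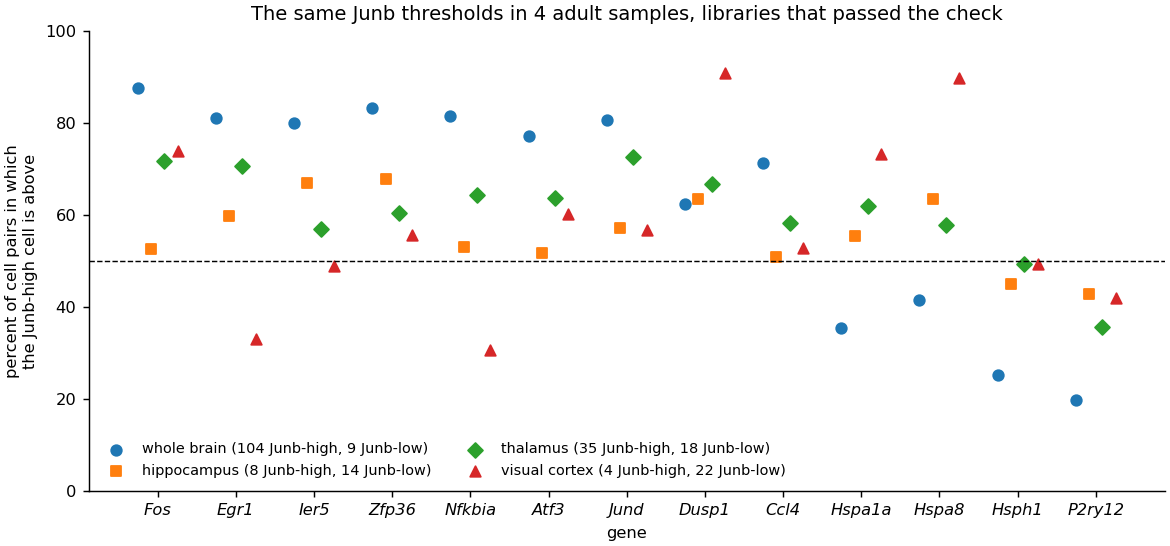
Percent of cell pairs in which the Junb-high cell is above, for 13 genes (x axis) in 4 adult samples among libraries that passed the check; the legend gives the number of cells and the dashed line is 50%. Fos is above 50% in all 4 samples, Egr1 in 3, Hspa1a in the 3 regions but not in whole brain, and P2ry12 in none.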

How the data were processed

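Per the labels' protocols, single cells were captured on Fluidigm C1 chips and libraries prepared with Nextera XT. The authors deposited 1 table of TPM values, made with RSEM 1.2.19 on GRCm38 per the submitters' processing notes, which also name Seurat; the sources used here name no aligner, annotation or filter. Sums per column ran from 996167 to 1000000, depth is unknown, and there are no molecular identifiers and no strand information. Columns were matched to samples by title. The rule gave 115 Junb-high, 85 intermediate and 21 Junb-low cells among 221 of 1617 cells, and 104 Junb-high and 9 Junb-low cells passed the library check. Of the columns, 481 adult ones were used and 1136 of other ages were not.

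Ratios of mean TPM were formed after adding 1 TPM to each mean as a pseudocount, so ratios of low genes are understated. Pair shares, exact Clopper-Pearson intervals and Spearman's rho were computed with Python 3.11.15, numpy 2.4.6, pandas 2.3.3 and scipy 1.17.1; figures used matplotlib 3.10.9. The scripts were tested on simulated data. Coordinates are those of GENCODE M21, in which 39379 of 43280 names (91.0%) matched 1 gene, and promoters those of RefSeq.

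To be named, a gene had to reach a mean of 50 TPM in the group where it was higher, be at 1 TPM in 25% of that group and keep its sign on both scales; the 15 largest ratios each way and up to 4 genes per list were eligible. Further genes were named as members behind a count or a pair share, or because a setting changed them, after their values were seen. Members, the 37 lists and the rules were chosen with earlier results of these data known. Alternatives covered pseudocount, scale, low-value filter, gene number per cell, title stretches, single cells, other cell types, Junb thresholds, the lone Junb-low cell and rescaling.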

Additional observations from a re-analysis of the deposited data

How the results depend on the processing

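Apart from the library-check settings and those without the lone Junb-low cell, all alternatives and their results were listed for this work with earlier results of these data known; these and the 70% pair rule were chosen after seeing the data. Of the values given for whole lists or all genes, 83 stayed within 1.5 times of the reported value and 34 did not. Junb-low at 0 gave the same cells. Fos, Egr1, Zfp36 and Nfkbia were higher in over 60% of pairs under every alternative for which pairs change, the lowest being Nfkbia at 64.3% and Zfp36 at 68.5% outside the largest stretch of titles. In what follows, counts are of genes, percents are of measured genes and ratios are log2, and the cause of each shift was not tested. The medians of single lists and ratios of single genes below each had the opposite sign in the main comparison. There the medians were 1.43 for glucocorticoid response, 1.94 for interferon, -1.79 for cell cycle and -0.95 for mitochondrial genes. They were 0.62 for homeostatic, 0.73 for disease-associated and 0.67 for complement genes, and 0.60 for microglia markers.

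With the difference of mean log2(TPM + 1), 2161 genes were 1.5-fold higher, 1033 lower and 6 heat shock genes higher; the mitochondrial median was 0.21 and Ccl2 0.86. With no filter on low values, 8862 were higher and 5268 lower, since more genes counted, and 0.617% were higher and 0.0123% lower in 70% of pairs. The percent lower in 70% of pairs was 0.0876% among cells with 1000 genes or more, 0.0174% and 0.0547% with Junb-high set at 50 and 300 TPM, and 0.0143% after median-ratio rescaling.

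In the shared middle range of genes per cell (37 Junb-high and 5 Junb-low cells), 5.63% of genes were higher and 4.35% lower in 70% of pairs. List medians there were -0.27 for homeostatic genes, -0.11 for interferon, -0.092 for complement, 1.84 for cell cycle, 0.89 for mitochondrial genes and -0.34 for microglia markers; Ier2 was -0.22, Ppp1r15a -0.23, Dusp1 -0.67, Hspa8 -0.89 and Cx3cr1 -0.28.

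In the largest stretch of titles alone, 17 heat shock genes were 1.5-fold higher, 3.18% of genes were higher and 0.371% lower in 70% of pairs, and the ratios were 1.03 for cell cycle, 0.89 for Ccl2, 5.44 for Ccl7 and 0.057 for Ly6c2. The median of all measured genes in that stretch was 1.47. Outside it (14 and 6 cells), 17 immediate early and 6 heat shock genes were 1.5-fold higher, 5.397% of genes were higher and 4.54% lower in 70% of pairs, and 9 immediate early genes were higher by that rule. The median of all measured genes was 0.70 outside it. Ratios there were -2.97 for glucocorticoid response, -1.57 for interferon, -0.93 for Ier2, -0.46 for Dusp1, -0.51 for Socs3, -0.14 for Hspa1b, -0.14 for Hspa8 and -0.17 for Actb.

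Without the highest cell of each gene, 920 genes were lower, 18 heat shock genes higher, and cell cycle was 0.18, Ccl2 0.70 and Ccl7 3.73. The median of all measured genes was 1.89 in that setting. Without cells that hold a neutrophil or border marker at 100 TPM, 2.39% of genes were higher and 0.458% lower in 70% of pairs, with cell cycle at 0.84, Ccl2 at 7.10 and Ccl7 at 5.95.

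Among libraries that passed the check, 1.596% of genes were lower and 7 immediate early genes higher in 70% of pairs, with medians of -0.30 for homeostatic genes and -0.27 for microglia markers, and a ratio of -0.33 for Hspa8. Within their largest stretch (90 and 4 cells), 2152 genes were 1.5-fold lower, 2.98% were higher and 7.67% lower in 70% of pairs, with 10 immediate early genes among the higher; cell cycle was 1.16, mitochondrial genes 0.14, Btg1 -0.22, Mcl1 -0.80, Ccl7 5.60 and Ly6c2 0.024.

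Without the Junb-low cell outside both stretches, 0.0616% of genes were lower in 70% of pairs. Without it among passed libraries (8 Junb-low cells), 1.55% were lower and 9 immediate early genes higher, with medians of -0.27 for homeostatic, -0.047 for disease-associated and -0.040 for complement genes, 1.38 for cell cycle and -0.29 for microglia markers, and ratios of -0.0020 for Mcl1 and -0.44 for Hspa8.

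No paired analysis was possible because the labels give no replicate numbers and all cells of adult whole brain are 1 sample. TPM keeps no record of depth, so absence of a low gene in a cell cannot be told from shallow sequencing. The 9 passed Junb-low cells are the main limit: 1 cell of them moves a pair share by up to 11.1 percentage points.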
